A study of Mus musculus with 6 samples.

Results

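Amino acid transporters of the plasma membrane were described here in mammary tumors of BK5.ATF3 transgenic mice and in the adjacent normal mammary glands of the same mice. They are 10 of the 15280 genes in the deposited expression table, taken by gene symbol from the *Slc1*, *Slc3*, *Slc6*, *Slc7* and *Slc38* families, namely *Slc38a4*, *Slc38a1*, *Slc38a2*, *Slc7a5*, *Slc3a2*, *Slc1a5*, *Slc1a4*, *Slc6a14*, *Slc7a1* and *Slc7a8*. The 10 genes were chosen from the family with their tumor and normal gland values in these same libraries known, so those values are given as a description, with standard errors. Where the text says that one of the 10 passed or missed the thresholds used for all genes, this too is a description. It is not evidence about the group. Genes outside this group were tested, but the lists that hold them were compiled with earlier results of these data known.

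The RNA-Seq data hold 1 tumor (T) and 1 matched normal gland (M) from each of 3 mice (libraries T11035 and M11035, T11640 and M11640, T9232 and M9232), so n = 3 for each tissue. All mice were ATF3 transgenic females of the BK5.ATF3 line, in which a bovine keratin 5 promoter drives *ATF3* in basal epithelial cells, and each had bred and raised 1 litter. The ages of the 3 mice are not given in the sources used here, beyond a range of 6 to 12 months over which females of the line developed tumors. Both tissues carry the transgene, and each is bulk tissue with all of its cell types, so the comparison is of tumor with gland and not of transgenic with wild-type mice.

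Amino acid transporters move amino acids across the cell membrane by different means. System A carriers (*Slc38a1*, *Slc38a2*, *Slc38a4*) and *Slc6a14* pull amino acids into the cell with sodium. *Slc1a4*, *Slc1a5* and the light chains *Slc7a5* and *Slc7a8* exchange an amino acid inside the cell for one outside, and the light chains reach the membrane only when bound to the heavy chain that *Slc3a2* encodes. *Slc7a1* carries the cationic amino acids arginine, lysine and ornithine. In the mammary gland these carriers supply milk protein synthesis during lactation, and in many tumors several of them have been linked to glutamine uptake, to leucine uptake and to the activity of the growth regulator mTORC1.

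Fragments on genes numbered 4750989 to 7806908 per library. A floor of 3 fragments lay between 0.393 and 0.610 CPM and covers counting error only, and all 10 transporters were over it in every library. Markers of mammary epithelium were present in both tissues, with the 10 epithelial genes listed summing to 240 to 518 CPM in the glands and 862 to 1228 CPM in the tumors. All 10 basal epithelial markers (245 to 392 against 2789 to 3285 CPM) and all 9 squamous markers of the table (9.08 to 10.4 against 2595 to 4692 CPM) rose in the tumors, in limma's moderated test. All 10 adipocyte markers (3428 to 6728 against 160 to 221 CPM), 7 milk protein genes (3381 to 52941 against 126 to 760 CPM), 9 B cell markers (344 to 870 against 16.4 to 16.9 CPM) and 9 T cell markers (211 to 534 against 31.6 to 52.1 CPM) fell. Of 8 neutrophil markers (95.6 to 189 against 845 to 1443 CPM) 5 rose and 2 fell, and of 9 fibroblast markers (1040 to 4451 against 8517 to 9176 CPM) 4 rose and 1 fell. Of 6 contractile and 8 endothelial markers, 3 each fell, as did 1 of 9 macrophage markers. Of the defining markers, *Lep*, *Wap*, *Lalba*, *Cd79a*, *Pax5* and *Mpo* did not exceed the floor in any tumor, and *Lor*, *Ivl*, *Sprr1a* and *Sprr1b* did not in any gland. Gland M9232 stood apart with 51854 CPM of caseins, against 2684 and 4988 CPM in M11035 and M11640. Skeletal muscle markers summed to 4397 CPM in M11035 and 1645 CPM in M11640, but to 6.70 CPM in M9232 and 9.44 to 22.0 CPM in the tumors. In such tissue, fewer cells of a type and less RNA per cell cannot be told apart. The part of these cell types in the results on transporters was not tested. Where a named gene changed its call without gland M9232 or without the 2 glands with muscle markers, the value is given beside it. Leaving out the 2 glands with muscle markers leaves only gland M9232, the one with the high caseins. In that setting, muscle, milk genes and the use of 1 gland cannot be told apart.

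The transporters did not move as a block. Summed over the 10 genes, expression was 589 to 686 CPM in the glands and 1903 to 2420 CPM in the tumors. In 6 genes every tumor lay above every gland, in 2 every tumor lay below every gland, and in 2 the tissues overlapped. Among all genes of the table, 27.6% had every tumor above every gland and 26.3% had every tumor below. With thresholds of a 2-fold change and an adjusted p of 0.05 (limma, two-sided), 5 of the 10 were called higher in the tumors, where 14.5% of all genes were, and 1 was called lower, where 13.7% of all genes were. Since these values chose the genes, nothing is read from the counts. The median log2 fold change was 1.0 over the 10 genes and 0.00 over all genes. Without gland M9232, 6 were called higher and 1 lower. Without the 2 glands with muscle markers, a check added after the data were seen, 4 were called higher and 2 lower.

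**Figure D1:**
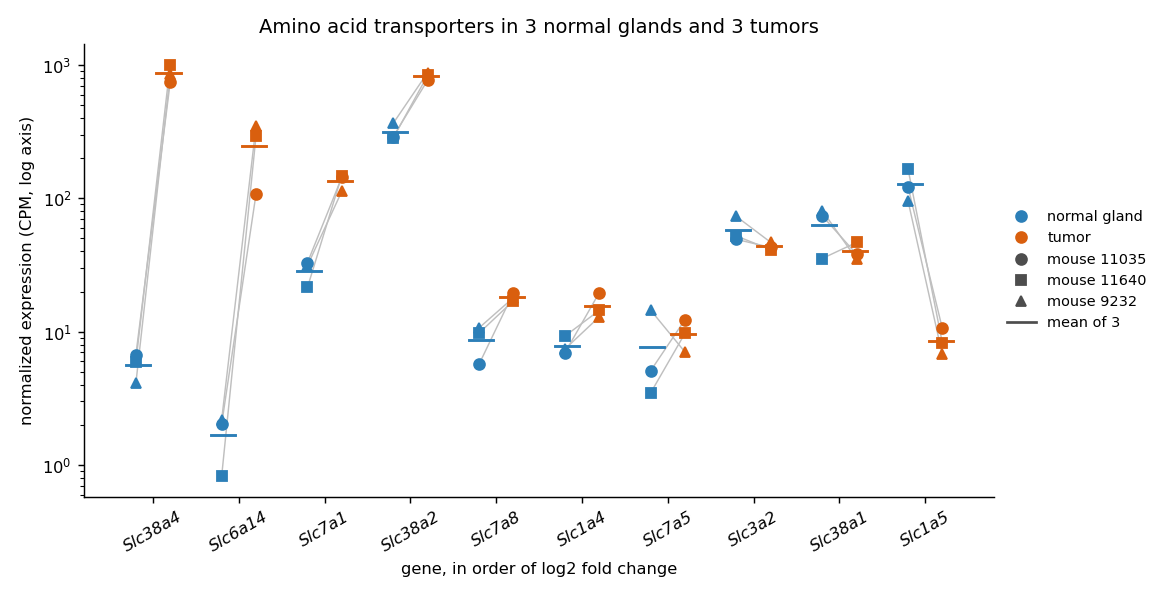
Normalized expression (CPM, log axis) of the 10 amino acid transporters in each of 3 normal glands (blue) and 3 tumors (orange), with a marker shape for each mouse, grey lines joining the tissues of a mouse and bars at the mean of 3. *Slc38a4* and *Slc6a14* lie at 0.83 to 6.71 CPM in the glands and at 107 to 1007 CPM in the tumors, while *Slc1a5* goes from 96.0 to 167 CPM down to 6.74 to 10.6 CPM.

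System A was made up differently in the 2 tissues. *Slc38a4*, which encodes SNAT4, a carrier of small neutral amino acids known from liver and placenta and expressed in mice mainly from the paternal allele, had 6.71, 5.95 and 4.10 CPM in glands M11035, M11640 and M9232. In tumors T11035, T11640 and T9232 it had 742, 1007 and 851 CPM. Every tumor was thus more than 100 times as high as every gland, with a mean of 867 ± 133 CPM (SD, n = 3) against 5.59 ± 1.34 CPM, or 155-fold. Its log2 fold change (log2FC), on the scale of log2(CPM + 0.5) used for every log2FC here, was 7.17 (standard error, SE, 0.21), the 45th highest of the 15280 genes. Within the 3 mice the log2 difference was 6.69, 7.29 and 7.53, so the difference was large in every animal. The gland values rest on 30 to 36 fragments per library and the tumor values on 3986 to 7685.

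*Slc38a2*, which encodes SNAT2, the System A carrier that cells induce when amino acids are scarce, had 290, 284 and 366 CPM in the glands and 768, 835 and 876 CPM in the tumors, in the mouse sequence above. All tumors lay above all glands, and the log2FC was 1.41 (SE 0.14). Expressed as a level, *Slc38a2* was already abundant in the normal gland, unlike *Slc38a4*. *Slc38a1*, which encodes SNAT1, was at 74.0, 35.3 and 81.0 CPM in the glands and 38.1, 46.7 and 35.1 CPM in the tumors. The tissues overlapped because gland M11640 lay among the tumors, and the tumor was lower in 2 of 3 mice. Its log2FC was -0.58 (SE 0.30), and it was -1.02 without the 2 glands with muscle markers and -1.07 without M11640 and T11640 together, each past both thresholds.

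These 3 genes are neighbours. On mm9 they lie on chromosome 15, all on the minus strand, with *Slc38a1* at chr15:96401849-96473344, *Slc38a2* at chr15:96517825-96530129 and *Slc38a4* at chr15:96825254-96886387. The gap between the first pair is 44.5 kb and the gap from *Slc38a2* to *Slc38a4* is 295 kb, within a stretch of 485 kb. Within that stretch the log2FCs were -0.58, 1.41 and 7.17 in the sequence of their positions. The genes share no overlapping exons with any other gene of the table.

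*Slc6a14* had the second of the large differences. It encodes ATB0,+, which imports neutral and cationic amino acids with sodium and chloride, and the gene lies on the X chromosome (chrX:21292022-21319481, plus strand). It had 2.03, 0.83 and 2.19 CPM in the glands, which is 10, 5 and 16 fragments, and 107, 292 and 346 CPM in the tumors. All tumors were far above all glands, although the tumors differed among themselves, with T11035 about a factor of 3 under T9232. The mean was 249 ± 125 CPM (SD, n = 3) in the tumors and 1.68 ± 0.75 CPM in the glands, a log2FC of 6.74 (SE 0.45) and the 57th highest of all genes. Of the 10 transporters, only *Slc7a5* had a larger standard error. The log2 difference was 5.41 for T11035, 7.79 for T11640 and 7.01 for T9232, each against the gland of its own mouse.

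The promoters of *Slc38a4* and *Slc6a14* are printed because these 2 genes carry the largest differences. Each is the 250 bases before a RefSeq transcript start (GRCm38.p6), 5′ to 3′ on the strand of the gene, and each was found once in mm9 by exact match. Capitals mark an AP-1 element, TGANTCA, the kind of site at which dimers of JUN with FOS or ATF proteins bind. For *Slc38a4*, RefSeq gives 3 starts, and the one shown lies at the start of the mm9 gene model (chr15:96886388-96886637, minus strand). For *Slc6a14* the stretch is chrX:21291776-21292025 (plus strand).
*Slc38a4*: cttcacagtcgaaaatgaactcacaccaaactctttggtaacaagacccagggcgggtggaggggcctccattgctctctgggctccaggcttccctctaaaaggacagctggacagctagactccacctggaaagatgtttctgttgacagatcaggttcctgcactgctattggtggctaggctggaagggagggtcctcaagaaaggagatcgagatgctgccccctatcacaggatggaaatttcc
*Slc6a14*: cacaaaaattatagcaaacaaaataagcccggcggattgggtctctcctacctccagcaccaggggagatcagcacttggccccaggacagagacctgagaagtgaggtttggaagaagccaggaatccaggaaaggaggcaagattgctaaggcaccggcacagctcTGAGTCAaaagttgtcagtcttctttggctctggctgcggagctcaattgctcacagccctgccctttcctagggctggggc
The *Slc38a4* stretch holds no capitals and that of *Slc6a14* holds 1 match, TGAGTCA, with its first base at -82 from the start. *Slc7a1* has an AP-1 match too, TGACTCA at -123 from the start of the more upstream of its 2 promoters, within chr5:149211481-149211730 (minus strand). *Slc1a4* holds a composite element of the kind bound by C/EBP and ATF4 proteins, TGATGNAA, which reads TTGCATCA on the strand of the gene and begins at -4, so that it spans the start next to chr11:20232717-20232966 (minus strand). Both are shown with the bases around them, in *Slc1a4* only up to the end of the match.
*Slc7a1*: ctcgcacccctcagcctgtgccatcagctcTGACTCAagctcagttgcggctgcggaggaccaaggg
*Slc1a4*: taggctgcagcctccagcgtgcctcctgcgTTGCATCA
Windows from 250 bases before to 50 after the start were searched on both strands in 10 promoters of 7 of the transporters. Promoters of *Slc38a1*, *Slc7a5* and *Slc1a5* were not analysed here. The AP-1 letters occurred in 2 of these 10 windows and in 7.81% of the 32851 windows of all genes, and the composite letters in 1 of 10 and in 3.97%. The cAMP response element TGACGTCA (1.79% of all windows) and the E-box CACGTG (7.15%) occurred in 0 of the 10. The motifs do not overlap each other in these windows. A match describes letters only and says nothing of binding. In base composition the windows ran from 45.3% to 73.0% GC and from 4 to 41 CpG, with the *Slc38a2* window at the top of both, where the median of all windows was 52.7% GC and 7 CpG. The *Slc38a4* window at the gene model's start had 53.0% GC and 5 CpG, and that of *Slc6a14* had 52.7% and 4.

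*Slc7a1*, which encodes CAT1, the main carrier of arginine and lysine in most cells, had 32.9, 21.5 and 31.3 CPM in the glands and 144, 148 and 113 CPM in the tumors. All tumors were above all glands, at 135 ± 19.3 against 28.6 ± 6.21 CPM (SD, n = 3). The fold was 4.72 and the log2FC 2.23 (SE 0.20). The gene lies at chr5:149138986-149211480 (minus strand), and its log2 difference was 2.11, 2.76 and 1.83 within the 3 mice, in the same sequence.

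The genes of the ASCT pair had fold changes of opposite sign. *Slc1a5*, which encodes ASCT2, an exchanger of neutral amino acids that is well known for glutamine, had 122, 167 and 96.0 CPM in the glands and 10.6, 8.26 and 6.74 CPM in the tumors. The highest tumor lay far below the lowest gland. The means were 128 ± 35.9 and 8.54 ± 1.95 CPM (SD, n = 3), a 15.0-fold lower level in the tumors and a log2FC of -3.82 (SE 0.25), the 183rd lowest of all genes. The tumor values rest on 45 to 63 fragments per library. Its log2 difference was -3.47, -4.26 and -3.74 within the same 3 mice, and it lies at chr7:17366695-17383623 (plus strand).

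*Slc1a4*, which encodes ASCT1, an exchanger of alanine, serine, cysteine and threonine, had 6.91, 9.25 and 7.39 CPM in the glands and 19.5, 14.4 and 12.9 CPM in the tumors. All tumors lay above all glands, with a log2FC of 0.94 (SE 0.23), just under the 2-fold threshold. The gene lies at chr11:20202183-20232716 (minus strand). It was past both thresholds without gland M11640 (1.05), without tumor T9232 (1.06) and without M9232 and T9232 together (1.02). In the same libraries, marker lists with a negative median log2FC included adipocyte (-5.95), milk protein (-4.91), B cell (-4.62), skeletal muscle (-3.75) and T cell (-2.95). *Slc1a5* stood at -3.82. Medians were positive for epithelial (1.51), basal epithelial (3.32), squamous (7.46), neutrophil (1.98) and fibroblast markers (1.19). The part of any cell type in the level of *Slc1a5* was not tested.

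The heavy chain and its light chains were compared next. *Slc3a2*, which encodes the heavy chain 4F2hc, also known as CD98, had 49.2, 52.2 and 73.0 CPM in the glands and 42.8, 41.2 and 46.8 CPM in the tumors. Every tumor was below every gland but by little, and the log2FC was -0.39 (SE 0.19), short of both thresholds. It lies at chr19:8781372-8797859 (minus strand). *Slc7a5* (chr8:124405052-124431594, minus strand), which encodes the leucine carrier LAT1, was low in both tissues, at 5.08, 3.47 and 14.5 CPM in the glands and 12.3, 9.70 and 7.04 CPM in the tumors. Gland M9232, the one with the high caseins, lay above all 3 tumors, and the tumor was higher in the mice of T11035 and T11640 and lower in that of T9232. The log2FC of *Slc7a5* was 0.52 (SE 0.46). It ran from -0.59 without the 2 glands with muscle markers to 1.08 without gland M9232 and 1.28 without M9232 and T9232 together, and the last 2 values were past both thresholds. The direction of *Slc7a5* thus depends on which glands are used.

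*Slc7a8* (chr14:55341053-55400723, minus strand), which encodes the neutral amino acid exchanger LAT2, had 5.69, 9.75 and 10.7 CPM in the glands and 19.5, 17.0 and 18.0 CPM in the tumors. All tumors lay above all glands, with a log2FC of 1.07 (SE 0.26), just over the 2-fold threshold. Without gland M11035, the lowest of the glands, it was 0.80. It was also short of a threshold without M11035 and T11035 together (0.75), without M11640 and T11640 together (1.21) and without the 2 glands with muscle markers (0.74). A further light chain is *Slc7a11* (xCT, which imports cystine in exchange for glutamate), a gene outside the 10 that rose from 55.7, 54.5 and 111 CPM in the glands to 247, 393 and 296 CPM in the tumors (log2FC 2.13, SE 0.29, limma adjusted p = 5.93e-04). Of the light chains of *Slc3a2* in the table (*Slc7a5*, *Slc7a6*, *Slc7a7*, *Slc7a8*, *Slc7a10* and *Slc7a11*), summed as CPM per kb of exon, *Slc7a11* made up 23.0 ± 5.38% in the glands and 56.1 ± 4.70% in the tumors (SD, n = 3). *Slc7a5* made up 7.36 ± 4.29% and 5.80 ± 2.33%. The light chains summed to 27.7 ± 5.32 CPM per kb in the glands and 49.1 ± 7.74 in the tumors, whereas *Slc3a2* itself stood at 19.7 ± 4.39 and 14.7 ± 0.97 CPM per kb.

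Levels of different genes were compared per kb of exon, since longer transcripts yield more fragments. In the normal glands the sequence from high to low was *Slc38a2*, *Slc1a5*, *Slc3a2*, *Slc38a1*, *Slc7a1*, *Slc7a5*, *Slc7a8*, *Slc1a4*, *Slc38a4* and *Slc6a14*. *Slc38a2* led with 67.7 ± 9.83 CPM per kb (SD, n = 3), clear of *Slc1a5* at 30.9 ± 8.64, and *Slc6a14* was last with 0.49 ± 0.22. The ranges of *Slc1a5* and *Slc3a2*, of *Slc38a1* and *Slc7a1*, and of neighbours from *Slc7a1* down to *Slc1a4* overlapped. *Slc38a4*, at 1.02 to 1.66 CPM per kb, lay below *Slc1a4*, at 1.76 to 2.36, and above *Slc6a14*, at 0.24 to 0.64. Its range overlapped those of *Slc7a5* (0.99 to 4.13) and *Slc7a8* (1.41 to 2.65), so its place among these genes holds for the means only.

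In the tumors *Slc38a4* led with 215 ± 33.1 CPM per kb, followed by *Slc38a2* with 179 ± 11.8, and their ranges overlapped slightly. *Slc6a14* was next at 72.4 ± 36.5, apart from *Slc38a2* above it and from *Slc7a1* (17.9 ± 2.57) below it. *Slc7a1* and *Slc3a2* (14.7 ± 0.97) overlapped, and so did *Slc38a1*, *Slc7a8*, *Slc1a4*, *Slc7a5* and *Slc1a5*, each with its neighbour, from 4.76 ± 0.72 down to 2.05 ± 0.47. By mean level, *Slc38a4* thus went from the ninth place to the first, *Slc6a14* from the last to the third, and *Slc1a5* from the second to the last. With the length of the longest transcript in place of all exons, *Slc7a5* was the last in the tumors (2.75 CPM per kb) and *Slc1a5* the ninth (3.04). Of the summed System A expression per kb, *Slc38a4* made up 1.87 ± 0.64% in the glands and 53.8 ± 3.05% in the tumors (SD, n = 3). *Slc38a2* made up 88.4 ± 2.93% and 45.0 ± 3.11%, and *Slc38a1* 9.70 ± 3.02% and 1.20 ± 0.14%. *Slc1a5* made up 93.8 ± 1.12% of the ASCT pair in the glands and 34.0 ± 1.02% in the tumors, or 95.7% and 43.3% when the length of the longest transcript was used. Summed over the 10 genes, expression was 138 ± 11.6 CPM per kb in the glands and 517 ± 71.3 in the tumors.

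**Figure D2:**
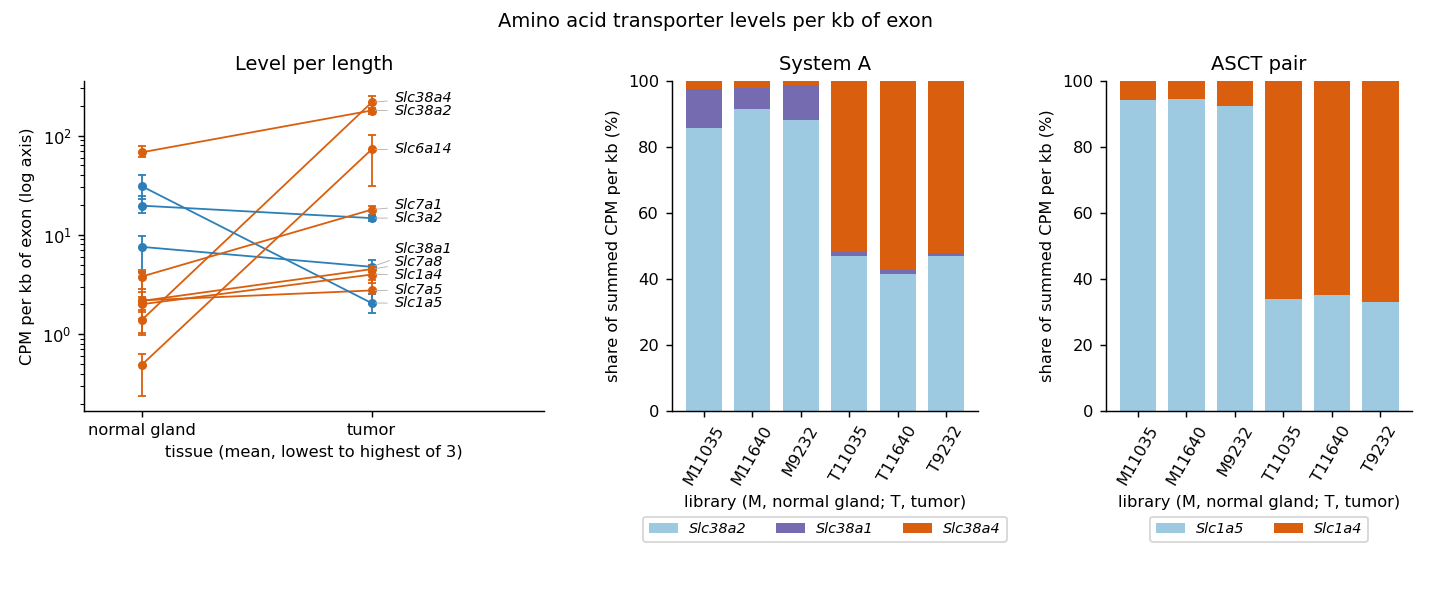
Left, mean level of each transporter in CPM per kb of exon (log axis) in 3 normal glands and 3 tumors, with bars from the lowest to the highest library, orange where the tumor mean is higher and blue where it is lower. Middle and right, the share of each gene in the summed CPM per kb of System A and of the ASCT pair in every library (M, normal gland, T, tumor), where *Slc38a4* goes from 1.87% to 53.8% of System A on average and *Slc1a5* from 93.8% to 34.0% of the pair.

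Other plasma membrane amino acid transporters were looked at next, from a list of 38 genes of which 27 were in the table. Of these, 3 rose and 7 fell in the tumors, and 17 were not called, or 11.1% and 25.9% of the list beside 14.5% and 13.7% of all genes. Their median log2FC was -0.34, and 10 of the 27 had a positive value. The range was -4.84 to 3.21, and no gene of the list had a value as high as *Slc38a4* or *Slc6a14*. The 10 transporters were chosen with their values known, so nothing is read from this difference. *Slc6a17*, a carrier of neutral amino acids into synaptic vesicles that is also counted with this family, rose from 0.20, 1.16 and 0.27 CPM to 7.82, 7.99 and 9.59 CPM (log2FC 3.21, SE 0.38, limma adjusted p = 2.53e-04). Its gland values rest on 1, 7 and 2 fragments, near the floor, which limits its fold. *Slc6a19*, the neutral amino acid carrier B0AT1 of gut and kidney, did not exceed the floor in any gland and was higher in the tumors by at least 2.74-fold (limma adjusted p = 0.0187). The call was lost when gland M11640 was left out (limma adjusted p = 0.0526) and without tumor T11640 (0.0642). The same held without M11640 and T11640 together (0.157), without M9232 and T9232 together (0.0881) and with a pseudocount of 1 (log2FC 0.94). Among the 17 alternatives that kept *Slc6a19*, the adjusted p lay between 0.00401 and 0.157 (limma, edgeR or DESeq2).

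The falls on this list were led by *Slc36a2*, a proton-coupled carrier of glycine, alanine and proline, from 57.3, 70.2 and 35.7 CPM to 2.42, 1.05 and 0.90 CPM (log2FC -4.84, SE 0.35, limma adjusted p = 2.1e-05). *Slc7a10*, the alanine, serine and cysteine exchanger Asc-1, was at 6.30, 5.45 and 1.92 CPM in the glands. No tumor exceeded the floor, which makes it at least 9.76-fold lower (limma adjusted p = 9.49e-04), and its exons overlap *Lrp3*. *Slc1a3*, a glutamate carrier of the same family as *Slc1a4* and *Slc1a5*, fell from 99.8, 102 and 70.7 CPM to 10.8, 12.1 and 11.2 CPM (log2FC -2.93, SE 0.19, limma adjusted p = 1.15e-05). The part of any cell type in these falls was not tested. Of the marker sums given above, those of adipocyte, milk protein, B cell and T cell markers were lower in the tumors. Those of epithelial, basal epithelial, squamous, neutrophil and fibroblast markers were higher.

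The closest relatives of the 10 genes did not all follow them. *Slc7a2*, another cationic carrier, had 222, 238 and 213 CPM in the glands and 211, 247 and 225 CPM in the tumors (log2FC 0.02, SE 0.13, limma adjusted p = 0.917), beside a log2FC of 2.23 for *Slc7a1*. In every library the CPM of *Slc7a2* was above that of *Slc7a1*. *Slc7a6*, which encodes y+LAT2, had a log2FC of 0.26 (SE 0.18) and *Slc7a7*, which encodes y+LAT1 and overlaps *Oxa1l*, one of -0.33 (SE 0.28), and neither was called. *Slc7a3* and *Slc7a13* were close to the floor, with means of 0.78 and 1.12 CPM in the glands and of 0.64 and 0.16 CPM in the tumors, and were not called. The expression table held no row under the symbols *Slc3a1*, *Slc7a9*, *Slc38a3* and *Slc38a5*, so these were not analysed.

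**Figure D3:**
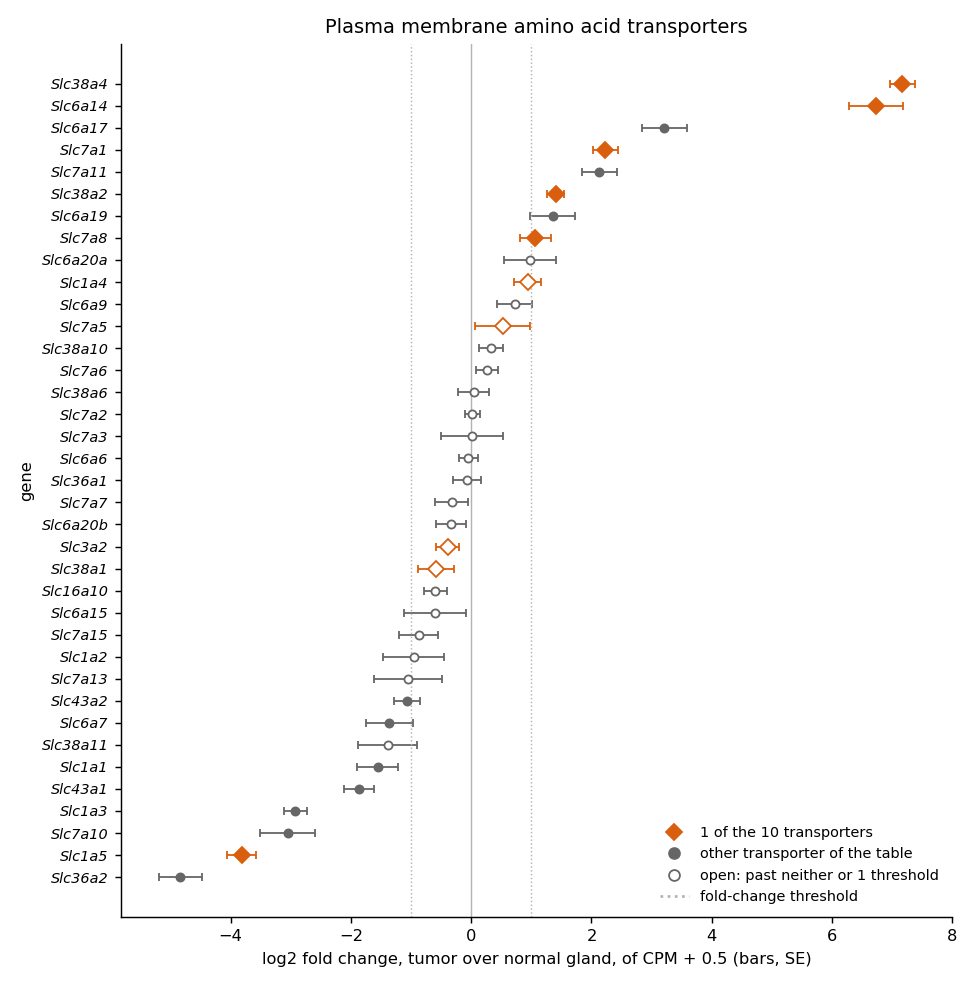
Log2 fold change of tumor over normal gland, on the scale of log2(CPM + 0.5), with its standard error, for the 10 amino acid transporters (orange diamonds) and 27 other transporters of the table (grey circles), filled where a gene passed both thresholds. *Slc38a4* (7.17) and *Slc6a14* (6.74) lie above every other transporter, and *Slc1a5* (-3.82) lies below all but *Slc36a2* (-4.84). The 10 were chosen with their values known, so this order is a description.

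Carriers of the organelles moved amino acids within the cell and were mostly not called. Of 20 listed, 19 were in the table, with 2 rises, 3 falls (10.5% and 15.8%, beside 14.5% and 13.7% of all genes) and a median log2FC of -0.04. *Slc25a13*, the mitochondrial aspartate and glutamate carrier citrin, rose from 5.16 ± 1.69 to 25.8 ± 2.78 CPM (log2FC 2.25, SE 0.25, limma adjusted p = 2.01e-04). *Slc15a3*, a lysosomal carrier of histidine and peptides whose exons overlap *Tmem132a*, rose with a log2FC of 1.17 (limma adjusted p = 0.0335). It lost this call without gland M11640 (0.87), gland M9232 (1.22), tumor T11035 (1.31), tumor T11640 (1.34) or tumor T9232 (0.86), without M11640 and T11640 together (limma adjusted p = 0.12) or M9232 and T9232 together (0.91), and without the 2 glands with muscle markers (1.07, limma adjusted p = 0.166, the highest among the alternatives). *Sfxn1*, the mitochondrial serine carrier, fell from 111 ± 18.4 to 44.5 ± 7.80 CPM (log2FC -1.31, SE 0.19, limma adjusted p = 7.98e-04). *Slc25a44*, which carries branched-chain amino acids into mitochondria, and *Slc25a22*, a mitochondrial glutamate carrier, had log2FCs of -1.08 and -1.02 (limma adjusted p = 0.00857 and 0.026). Both lost their calls without the 2 glands with muscle markers, *Slc25a44* at -0.57 (limma adjusted p = 0.194) and *Slc25a22* at -0.55 (limma adjusted p = 0.318). *Slc25a44* also lost it without gland M11035 (-0.96), gland M11640 (-0.94), M11035 and T11035 together (-0.88) or M11640 and T11640 together (-1.07, limma adjusted p = 0.0586). *Slc25a22* lost it without gland M11035 (-1.0), gland M11640 (-0.81), tumor T11640 (-0.99) or tumor T9232 (-0.95). It also lost it without M11035 and T11035 together (-1.10), without M11640 and T11640 together (-0.78) and with a pseudocount of 1 (-0.91).

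Genes that use glutamine or make nonessential amino acids were split. Of 23 listed, 22 were in the table, with 3 rises and 3 falls, the same share of 13.6% in each direction, and a median log2FC of -0.10. *Ass1*, the argininosuccinate synthase that rebuilds arginine, rose from 9.02 ± 1.62 to 69.6 ± 11.8 CPM (log2FC 2.88, SE 0.21, limma adjusted p = 1.96e-05). *Cth*, which makes cysteine, and *Psat1*, a step of serine synthesis, rose with log2FCs of 2.63 and 1.56 (limma adjusted p = 2.56e-04 and 8.41e-05). *Glul*, the glutamine synthetase, fell from 1068, 949 and 736 CPM to 190, 152 and 168 CPM (log2FC -2.42, SE 0.17, limma adjusted p = 1.8e-05), in the same direction as the level of *Slc1a5*. The alanine transaminases *Gpt* and *Gpt2* fell with log2FCs of -2.48 and -1.44 (limma adjusted p = 0.00252 and 3.95e-04), and *Gpt* lost its call without the 2 glands with muscle markers (limma adjusted p = 0.0842, with *Gpt* at -2.03).

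Breakdown of branched-chain amino acids was the list with most calls in 1 direction. Of its 26 genes, 21 fell (80.8%, beside 13.7% of all genes) and 1 rose, with a median log2FC of -1.81. *Aldh6a1*, which acts late in valine breakdown and whose exons overlap *2900006K08Rik*, fell from 332 ± 82.7 to 20.5 ± 3.32 CPM (log2FC -3.97, SE 0.21, limma adjusted p = 4.05e-06). *Hibch* and *Pccb*, further enzymes of the pathway, fell with log2FCs of -2.92 and -2.34 (limma adjusted p = 3.67e-05 and 9.74e-05). *Bcat1*, the cytosolic transaminase of leucine, isoleucine and valine, was the gene that rose, from 5.08, 4.13 and 5.20 CPM to 30.3, 22.3 and 18.1 CPM (log2FC 2.16, SE 0.24, limma adjusted p = 1.95e-04). In these libraries the median log2FC was negative for adipocyte (-5.95), milk protein (-4.91), B cell (-4.62), skeletal muscle (-3.75) and T cell markers (-2.95), among others. It was positive for epithelial, basal epithelial, squamous, neutrophil and fibroblast markers, among others. The part of any cell type in the falls of this list was not tested. Without the 2 glands with muscle markers 17 of the 26 genes were called lower. Of 15 genes of arginine and tryptophan breakdown in the table, 2 rose and 6 fell (13.3% and 40.0%, beside 14.5% and 13.7% of all genes). *Nos2* and *Arg1*, which consume arginine, rose with log2FCs of 2.13 and 2.05 (limma adjusted p = 0.00301 and 0.00103). The gland values of *Nos2* rest on 4, 11 and 5 fragments, near the floor, which limits its fold. In the same tumors, 5 of 8 neutrophil markers rose and 2 fell. Of 9 fibroblast markers 4 rose and 1 fell, and of 9 macrophage markers 0 rose and 1 fell. The part of these cells was not tested. *Haao*, *Tdo2* and *Ido1*, enzymes of tryptophan breakdown, fell with log2FCs of -2.37, -2.03 and -2.07 (limma adjusted p = 0.00209, 0.00357 and 0.0422). Their tumor values lie near the floor, at 3, 4 and 3 fragments for *Haao*, 3, 9 and 2 for *Tdo2* and 8, 0 and 4 for *Ido1*. The call of *Ido1* was lost without gland M11035 (-1.35), tumor T11640 (-1.55, limma adjusted p = 0.149) or tumor T9232 (-2.12). The same held without M11640 and T11640 (-2.00) or M9232 and T9232 together (-2.40), and without the 2 glands with muscle markers (-1.52). The call was also lost with a pseudocount of 0.1 (limma adjusted p = 0.0514) and without the mean-variance trend (0.0595). The lowest adjusted p of *Ido1* among its alternatives was 0.00531 (limma, edgeR or DESeq2).

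Of 36 genes of amino acid sensing and mTORC1, 1 rose and 2 fell (2.78% and 5.56%, beside 14.5% and 13.7% of all genes), and the median log2FC was -0.23. *Sesn2*, a leucine sensor and stress gene, rose with a log2FC of 1.33 (limma adjusted p = 0.0147). *Sesn2* lost its call without tumor T9232 (0.98), without M11640 and T11640 together (1.26, limma adjusted p = 0.096) and without the 2 glands with muscle markers (1.05, limma adjusted p = 0.203). *Deptor*, an inhibitor of mTOR, fell from 185 ± 67.6 to 29.2 ± 9.25 CPM and *Rragb*, a Rag GTPase that brings mTORC1 to the lysosome, from 10.1 ± 2.74 to 1.48 ± 0.60 CPM, with log2FCs of -2.64 and -2.44 (limma adjusted p = 2.38e-04 and 6.59e-04).

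Regulators of transporter genes were examined last. Of 19 listed, 17 were in the table, with 5 rises and 1 fall (29.4% and 5.88%, beside 14.5% and 13.7% of all genes). *Atf4*, the factor that induces transporter genes such as *Slc7a11*, *Slc38a2* and *Slc7a5* when amino acids are scarce, had 89.1, 60.6 and 70.9 CPM in the glands and 100, 95.8 and 110 CPM in the tumors, a log2FC of 0.49 that passed neither threshold (limma adjusted p = 0.0511). *Myc*, known as an activator of *Slc1a5* and *Slc7a5*, had 26.6, 25.1 and 28.3 CPM against 45.6, 42.1 and 34.6 CPM, a log2FC of 0.59 (limma adjusted p = 0.0218) that is short of 2-fold. *Atf3*, as counted on the mouse gene (whether fragments of the transgene were counted there was not tested), had 4.47, 8.09 and 22.6 CPM in the glands and 13.4, 18.3 and 19.3 CPM in the tumors, with a log2FC of 0.80 that was not called (limma adjusted p = 0.223). Without gland M9232 it was called, at 1.41 (limma adjusted p = 0.00804, and at 1.31 without M9232 and T9232 together).

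The genes that rose on this list were *Mycn*, *Ddit4*, *Eif2ak2*, *Cebpb* and *Nfe2l2*, of which the last 2 were named after their values were seen. *Mycn*, a relative of *Myc*, had a log2FC of 2.26 (limma adjusted p = 0.0048) and lost its call without M11640 and T11640 together (limma adjusted p = 0.0623, its largest over all alternatives). The gland values of *Mycn* rest on 15, 3 and 7 fragments, near the floor, which limits its fold. *Ddit4*, an inhibitor of mTORC1 that stress induces, and *Eif2ak2*, the kinase PKR, had log2FCs of 2.07 and 1.54 (limma adjusted p = 0.00604 and 0.00147). *Cebpb*, whose exons overlap *Tmem189*, and *Nfe2l2*, an activator of *Slc7a11*, had values of 1.34 and 1.05 (limma adjusted p = 0.00221 and 9.06e-04). *Stc2*, an ATF4 target, fell with a log2FC of -1.84 (limma adjusted p = 0.00812). *Ddit4* and *Stc2* lost their calls without the 2 glands with muscle markers (1.53 and -1.31). *Stc2* also lost its call without M11640 and T11640 together (-1.87, limma adjusted p = 0.0778).

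**Figure D4:**
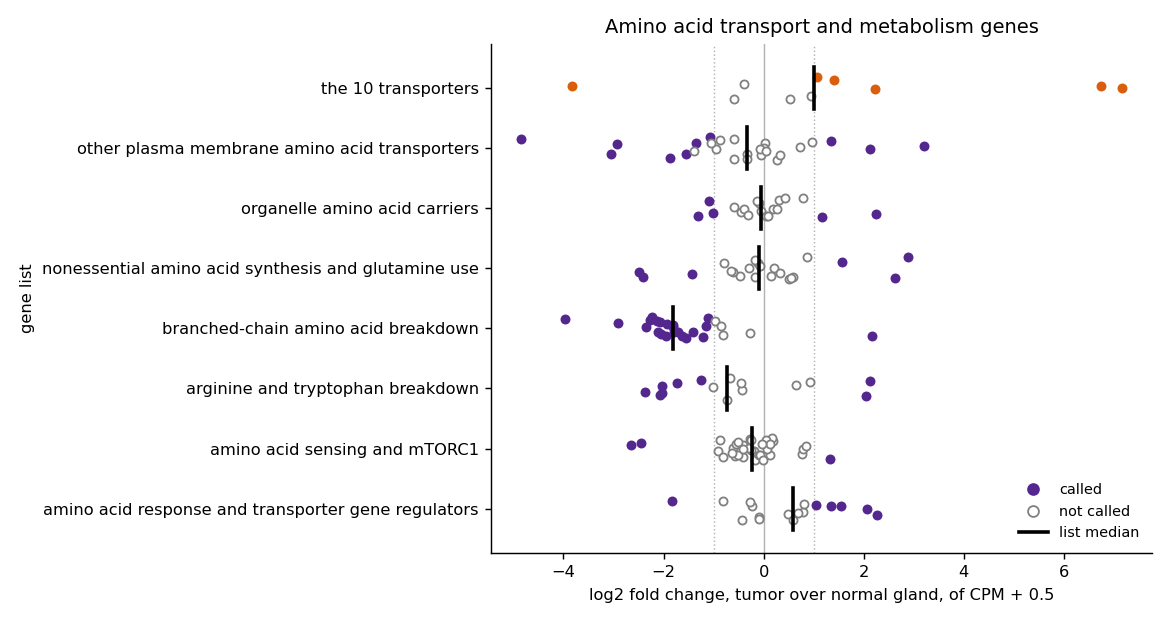
Log2 fold change of tumor over normal gland, on the scale of log2(CPM + 0.5), of each gene (circle) in the 10 transporters and 7 lists of amino acid transport and metabolism, filled where the gene passed both thresholds, with a bar at each list's median. The 10 transporters spread from -3.82 to 7.17 around a median of 1.0, and the genes of branched-chain amino acid breakdown lie mostly below -1 with a median of -1.81.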

How the data were processed

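The authors aligned paired reads to mm9 (TopHat), assigned fragments to RefSeq genes (htseq-count), dropped genes with under 10 fragments in total and deposited 1 normalized expression signal per gene and library, in CPM relative to the effective library size of edgeR (CASAVA 1.8.2, TopHat2 2.0.3, HTSeq 0.5.3p9 and edgeR 3.6.1 per the labels). In all 6 libraries 100% of values were whole multiples of 1 step (tolerance 0.01), so fragments were recovered. Here log2(CPM + 0.5) was tested with limma 3.58.1 (R 4.3.3, mean-variance trend, two-sided, Benjamini-Hochberg over 15280 genes), with calls where the adjusted p was 0.05 or lower and the log2 fold change 1 or more in size. The smallest p of an exact permutation test with 3 libraries per tissue is 0.1. Alternatives were edgeR 4.0.16 on the recovered fragments (2238 genes higher, 2224 lower), DESeq2 1.42.0, other pseudocounts, filters and scaling, and libraries or mice left out. Where 1 gland remained (M9232), it was assumed to vary like the tumors. The libraries of a mouse share an animal and so are paired. Deviations from the tissue means correlated between the tissues of a mouse with r = 0.107 (T11035), 0.151 (T11640) and 0.0168 (T9232) over 14712 genes, and a fit with the mouse as a block was an alternative. Folds against a tissue at or under 3 fragments per library use that floor. Lengths, positions and overlaps came from GENCODE vM1 (mm9), near-identical transcripts from BLAST 2.17.0 (95% over 500 bp, 0 of the 10 genes) and promoters from RefSeq (GRCm38.p6). Genes named are the 10 transporters, their closest relatives, *Atf3*, *Atf4*, *Myc* and, per list, up to 3 largest rises and falls among calls whose mean reached 1 CPM in either tissue. The transporters and lists were chosen with earlier results of these data known. The fits were tested on simulated data. Of the per-sample columns, 0 were left out.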

Additional observations from a re-analysis of the deposited data

How the results depend on the processing

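Over 18 alternatives, and as a description since these values chose the genes, the log2FC lay between 6.98 and 7.55 for *Slc38a4*, 6.21 and 7.40 for *Slc6a14*, 1.97 and 2.43 for *Slc7a1*, 1.17 and 1.52 for *Slc38a2*, -4.01 and -3.44 for *Slc1a5*, and -0.74 and -0.22 for *Slc3a2*. With the mouse as a replicate block, 5 of the 10 transporters were called higher and 1 lower, as without it, and the count of other plasma membrane transporters called lower was 6. No direction of a called gene reversed. Among counts of called genes, 262 stayed within 1.5 times and 26 moved. The number of the 10 transporters called lower was 2 without M11640 and T11640 and 2 without normal glands M11035 and M11640 (a setting added after seeing the data). For other plasma membrane transporters, 4 were called lower without M9232 and T9232. Organelle carriers called higher numbered 1 to 2 when 1 library was left out, 1 without M11640 and T11640 and 1 in the added setting, and those called lower numbered 1 to 3, 1 without M11035 and T11035, 1 without M11640 and T11640 and 1 in the added setting. Sensing and mTORC1 genes called higher numbered 0 to 2 with 1 library left out (0 without tumor T9232 and 2 without gland M9232), 0 without M11640 and T11640 and 0 in the added setting. Response and regulator genes called higher numbered 3 without M11640 and T11640 and 3 in the added setting, and those called lower numbered 1 to 2 with 1 library left out, 0 without M11640 and T11640, 2 without M9232 and T9232 and 0 in the added setting. The share of *Slc1a5* in the ASCT pair was 43.3% in tumors and 95.7% in glands with the length of the longest transcript, which is shorter than the exon union used otherwise. Fewer samples entered each fit that left a library out, and apart from that the cause was not tested. *Slc6a14* in the glands rests on 5 to 16 fragments, which limits its fold.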
